A study of Mus musculus with 653 samples.

Results

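The 9 genes described here are the IGF binding proteins Igfbp1 to Igfbp7, the growth factor gene Igf1 and its receptor gene Igf1r, taken by name from a table of 54195 mouse genes, of which 28292 had a read in at least 1 cell. They were followed across single cells of mouse liver, 414 of E10.5 and 239 of E13.5. The embryos came from Lgr5-EGFP-IRES-creERT2 males, kept on C57BL/6, crossed to MF1 females, so that EGFP is knocked in at the Lgr5 locus. The sort took Liv2+ CD31- CD45- cells, either all of them (bulk) or those that were also Lgr5-GFP+. At E10.5, 51% of the cells were Lgr5-GFP+ and 49% bulk, and at E13.5 33.5% (80 cells) were Lgr5-GFP+ and 66.5% bulk, which makes 4 groups. The study sorted cells in several experiments that served as biological replicates, but the labels tie no cell to an experiment, embryo or litter, so each group counted as 1 sample. No test between groups was possible, and intervals and shares cover counting error only.

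IGF1 and IGF2 are secreted growth factors that act through the receptor tyrosine kinase encoded by Igf1r, and IGF2 is also bound and cleared by the receptor encoded by Igf2r. The 6 classical binding proteins, Igfbp1 to Igfbp6, hold IGFs with high affinity in the extracellular space and the circulation, whereas the protein of Igfbp7 binds them weakly. In the adult, liver is the main source of circulating IGF1, and Igfbp1 is a hepatocyte gene that insulin represses. Fetal growth rests on both ligands.

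Cells were placed in lineages by reads of 4 marker genes, with a lineage meaning more than 10 reads of exactly 1 of them: Afp, the fetal albumin of hepatoblasts, Klf1, an erythroid transcription factor, Pdgfra, a receptor of mesenchymal cells, and Cdh5, the endothelial cadherin. At E10.5, 59 cells were Afp+ (14.3%), 32 Klf1+ (7.73%), 34.1% Pdgfra+ and 5 Cdh5+ (1.21%). At E13.5, 2 cells were Afp+, 53.6% Klf1+, 8 Pdgfra+ and 22 Cdh5+ (9.21%). Over both stages 245 cells passed none of the 4 thresholds and 11 passed more than 1. The labels call every cell a liver hepatoblast cell. However, cells positive for a hepatoblast list of 8 genes (more than 10 reads of at least 3 of them) made up 27.5% (58 cells) of the E10.5 Lgr5-GFP+ group, 3.45% (7) of the E10.5 bulk, 1.25% (1) of the E13.5 Lgr5-GFP+ and 1.26% (2) of the E13.5 bulk group. The lineages were not spread evenly over the sorts. Of the 59 Afp+ cells at E10.5, 53 were Lgr5-GFP+, all 32 Klf1+ cells at E10.5 were bulk, 97.7% of the Klf1+ cells at E13.5 were bulk, and all 22 Cdh5+ cells at E13.5 were Lgr5-GFP+. Lineage and sort therefore cannot be told apart at E13.5, or between Afp+ and Klf1+ cells at E10.5. Within the Lgr5-GFP+ sort, 53 Afp+ and 66 Pdgfra+ cells of E10.5 could be compared, and within the bulk 32 Klf1+ and 75 Pdgfra+ cells. The marker lists matched the names at E10.5, where all 59 Afp+ cells were positive for the hepatoblast list, 29 of 32 Klf1+ cells for an erythroid list and 78.7% of the Pdgfra+ cells for a mesenchymal list. They did not match throughout at E13.5, as given below.

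Values are RPM, the reads of a gene per 1e+06 reads, summed over the cells of a class, with an exact Poisson 95% interval, and the number of cells with more than 10 reads of the gene. Cells held a median of 1192740 reads (463347 to 2279700). The titles of the cells begin with 5 different prefixes, which were taken as 5 library pools. This reading was inferred from the titles, and how the pools relate to the study's sorting experiments is not known. The pools stood apart. Pools 1 and 2 had a median of 4515 and 4488 genes with a read per cell, against 6280 to 6606 in pools 3 to 5, at similar read numbers. In pool 1, 94% of the cells were positive for the erythroid list, against 12.1 to 37.4% in the other pools, and the 3 globin genes of that list came to 259 RPM in its E10.5 Afp+ and Pdgfra+ cells, against 1.36 to 51.2 RPM in the same cells of the others. Pool values are therefore given beside the results. A gene was called highest in a lineage if its RPM was at least 2 times that of every other lineage with at least 10 cells, and above each of them in every pool holding at least 5 cells of both.

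The members include neighbouring pairs of genes on opposite strands with their 3′ ends facing each other. Igfbp2 (chr1:72824503-72852474, + strand) and Igfbp5 (chr1:72857932-72874884, - strand) lie 5457 bases apart, and Igfbp1 (chr11:7197782-7202546, + strand) and Igfbp3 (chr11:7206086-7213923, - strand) lie 3539 bases apart, in GRCm38. The 200 bases upstream of the RefSeq start of these genes (GRCm38.p6, each on its gene's strand) are shown as a description. Of Igfbp2 the first of its 2 windows is given. Capitals mark matches to 5 short motifs searched on both strands.
Igfbp1, chr11:7197587-7197786, +: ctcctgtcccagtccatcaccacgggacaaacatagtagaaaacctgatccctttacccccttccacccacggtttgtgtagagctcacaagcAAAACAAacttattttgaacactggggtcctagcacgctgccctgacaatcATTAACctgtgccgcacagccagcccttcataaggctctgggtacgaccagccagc
Igfbp3, chr11:7213924-7214123, -: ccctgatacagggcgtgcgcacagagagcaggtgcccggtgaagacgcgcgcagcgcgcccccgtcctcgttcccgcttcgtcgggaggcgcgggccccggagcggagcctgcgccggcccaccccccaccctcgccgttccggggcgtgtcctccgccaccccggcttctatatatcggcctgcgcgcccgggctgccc
Igfbp2, chr1:72824280-72824479, +: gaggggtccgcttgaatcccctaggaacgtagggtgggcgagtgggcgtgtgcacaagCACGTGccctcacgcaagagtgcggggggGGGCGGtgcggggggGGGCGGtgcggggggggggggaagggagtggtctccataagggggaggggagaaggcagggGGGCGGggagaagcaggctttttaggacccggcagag
Igfbp5, chr1:72874866-72875065, -: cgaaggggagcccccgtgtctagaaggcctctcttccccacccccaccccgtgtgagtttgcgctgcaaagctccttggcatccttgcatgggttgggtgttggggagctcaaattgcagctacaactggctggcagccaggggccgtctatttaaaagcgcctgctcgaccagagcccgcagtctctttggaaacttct

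The Igfbp1 window held an AAAACAA, the core of the insulin response element, at -107 from the start site, and on the other strand the HNF1 half-site GTTAAT at -56. These letters occur in 6.01% and 5.06% of 32851 RefSeq promoter windows of the same length. The Igfbp2 window held the E-box CACGTG at -142, found in 5.26% of windows, and 3 copies of the GC box GGGCGG, found at least once in 31.05%. Neither Igfbp3 nor Igfbp5 held any of these or the TATA box TATAAA, which 9.96% of windows hold and which stood at -28 in Igfbp4 (chr11:99041244-99054392, +). The windows of Igfbp3 and Igfbp1 differed in base composition, with 76% and 52.5% G+C and 29 and 5 CG dinucleotides. The medians over all windows were 53% and 5. A match of letters is a description, not a site.

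The members differed widely in level between lineages, as the heat map by class shows. Per kilobase of exon, which allows genes to be compared, the leading member of the E10.5 Afp+ cells was Igfbp4 with 112.3 RPKM, followed by Igfbp1 with 89.5 and Igfbp2 with 42.5. In the E10.5 Pdgfra+ cells the order was Igfbp4 with 191.97 RPKM, Igfbp2 with 99.3, Igfbp5 with 52.6, Igf1r with 15.4 and Igf1 with 13.6. In the Klf1+ cells Igf1r and Igfbp4 led at E10.5 with 11.5 and 11.4 RPKM, and Igf1r alone passed 3 RPKM at E13.5, with 8.55. In the E13.5 Cdh5+ cells Igfbp4 reached 415 RPKM, Igfbp7 189.4 and Igf1 35.5. Each neighbouring pair in these orders was further apart than its counting error except Igf1r and Igfbp4 in the E10.5 Klf1+ cells.

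**Figure D1:**
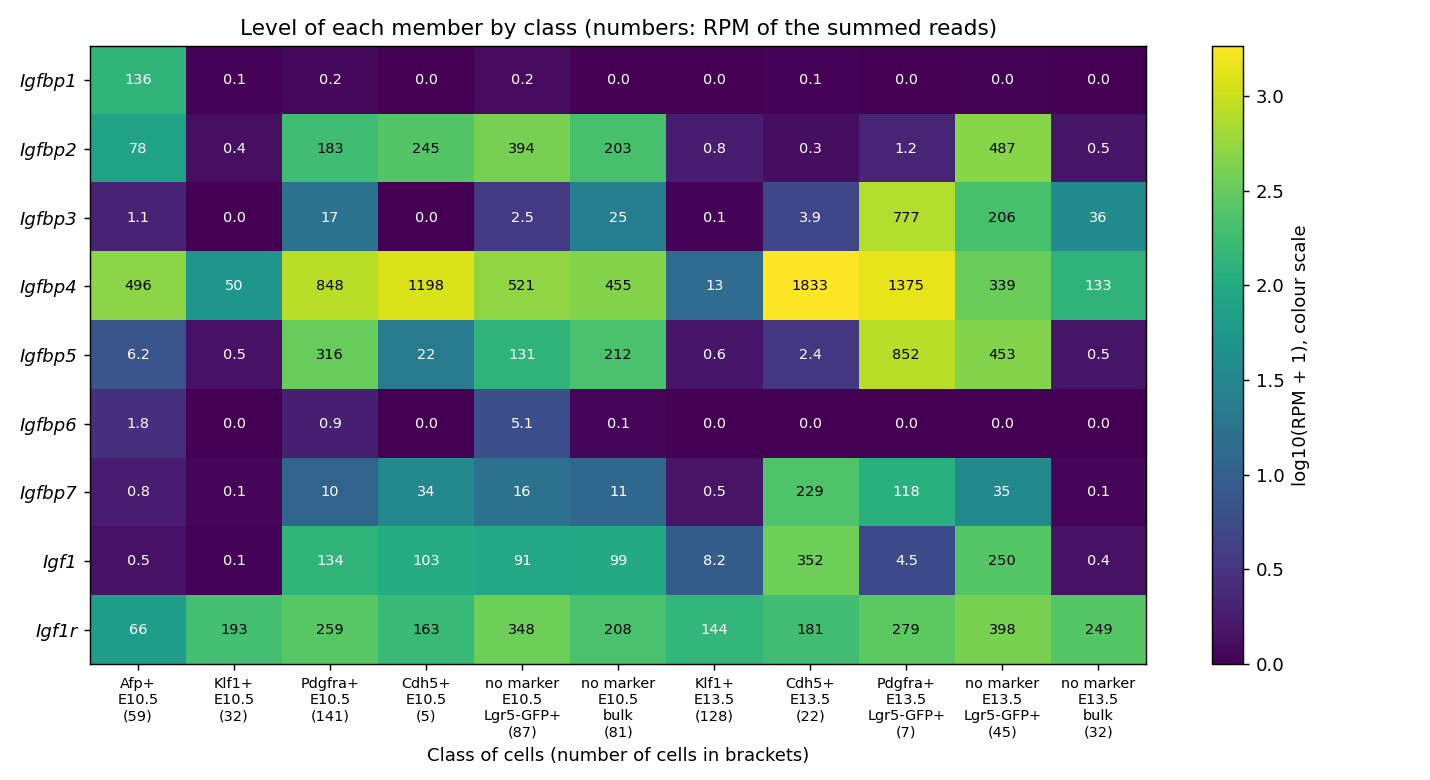
Level of each member in 11 classes of cells, as RPM of the summed reads (number in each field), with log10(RPM + 1) as the colour scale. Of the classes drawn, Igfbp1 passed 1 RPM only in the E10.5 Afp+ cells, at 136.5 RPM, whereas Igf1r lay between 65.7 and 398 RPM in every class drawn.

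Igfbp1, a binding protein of hepatocytes, was the member of the E10.5 Afp+ cells. It reached 136.5 RPM (133.8 to 139.2) and was over 10 reads in 25 of 59 cells (42.4%, exact binomial 95% interval 29.6 to 55.9%). Single cells ranged from 0 to 1882 RPM with a median of 0.895, and the highest cell held 16.8% of the reads. In the Pdgfra+ cells it came to 33 reads (0.189 RPM), of which 1 cell held 87.9%, and in 32 Klf1+ cells to 3 reads. The Afp+ level was 721.8 times that of the Pdgfra+ cells (514 to 1049). Igfbp1 was higher in the Afp+ cells in 4 of 4 pools with at least 5 cells of each class. Pool 1, with 2 Afp+ cells, was not among them, and neither of these cells had a read of Igfbp1. Counts of pools below have the same minimum. At E13.5 it was at most 0.0682 RPM in every class, but only 2 Afp+ cells were left at that stage, both with 0 reads. The study proposes that E13.5 cells on the hepatocyte path no longer carried the Liv2 epitope and were therefore missed by the sort. Loss of the transcript, loss of the cells and cells missed by the sort cannot be told apart here.

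Within the Afp+ cells Igfbp1 followed the pool. It was 44.7 RPM in the 33 cells of pool 2, against 309, 230 and 293 RPM in the 10, 5 and 9 cells of pools 3 to 5. Without pool 2 the level was 263.6 RPM. In pool 2, 5 of 33 cells passed 10 reads, and 20 of 24 did so in pools 3 to 5. The same pool-2 cells had a median of 4848 genes with a read (6795 to 7354 in pools 3 to 5) and 1077 RPM of Afp (4042 to 4251), while their hepatoblast list summed to 18771 RPM, within the 13382 to 19343 RPM of the others. Whether the libraries or the cells differed was not tested. The 6 bulk Afp+ cells had 213 RPM, of which 1 cell gave 96.2%, and the 53 Lgr5-GFP+ cells had 126.8 RPM. These groups were not compared because 6 cells are too few.

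Igfbp1 was 1 of 3 members called highest in a lineage at E10.5, of 8 that reached 5 RPM in at least 1 lineage. Among all 12081 genes at 5 RPM or more, 4.24% were called highest in the Afp+ cells, 9.69% in the Pdgfra+ cells and 5.57% in the Klf1+ cells. The other members called, Igfbp5 and Igf1, were highest in the Pdgfra+ cells, and no member was called for the Klf1+ cells. The same 3 were called in pools 3 to 5 alone, where Igfbp3 and Igfbp7 joined the Pdgfra+ calls, and in pools 1 and 2 alone, where Igfbp2 and Igf1r joined them and no Klf1+ comparison could be made. In Lgr5-GFP+ cells alone, 53 Afp+ and 66 Pdgfra+, the same 3 were called in the same lineages, and Igf1r joined the Pdgfra+ calls. With a marker threshold of more than 0 reads, which left 49 Afp+, 46 Klf1+ and 58 Pdgfra+ cells, 0 members were called. The share of all genes called is not set beside these alternative settings, so the added calls are not results about the members.

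Igf1, the ligand, was highest in the Pdgfra+ cells among the lineages compared at E10.5. It was not confined to them. The E10.5 cells without a lineage marker had 95.1 RPM (39 cells over 10 reads). The 5 Cdh5+ cells, too few to compare, had 103.2 RPM (4 of 5). In the Pdgfra+ cells Igf1 reached 134.2 RPM (132.5 to 135.96) with 61 cells over 10 reads (43.3%, 34.95 to 51.9%) and a highest cell of 1699 RPM. The Afp+ cells had 33 reads in 59 cells (0.450 RPM), none of them over 10 reads, and the Klf1+ cells had 3 reads in 32 cells. The Pdgfra+ level was 298 times that of the Afp+ cells (212 to 433). By pool the Pdgfra+ cells had 162.3, 174.3, 122.8, 158.8 and 51.3 RPM, and no pool of Afp+ cells passed 0.591 RPM. The Pdgfra+ cells lay above the Afp+ cells in each of pools 2 to 5.

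**Figure D2:**
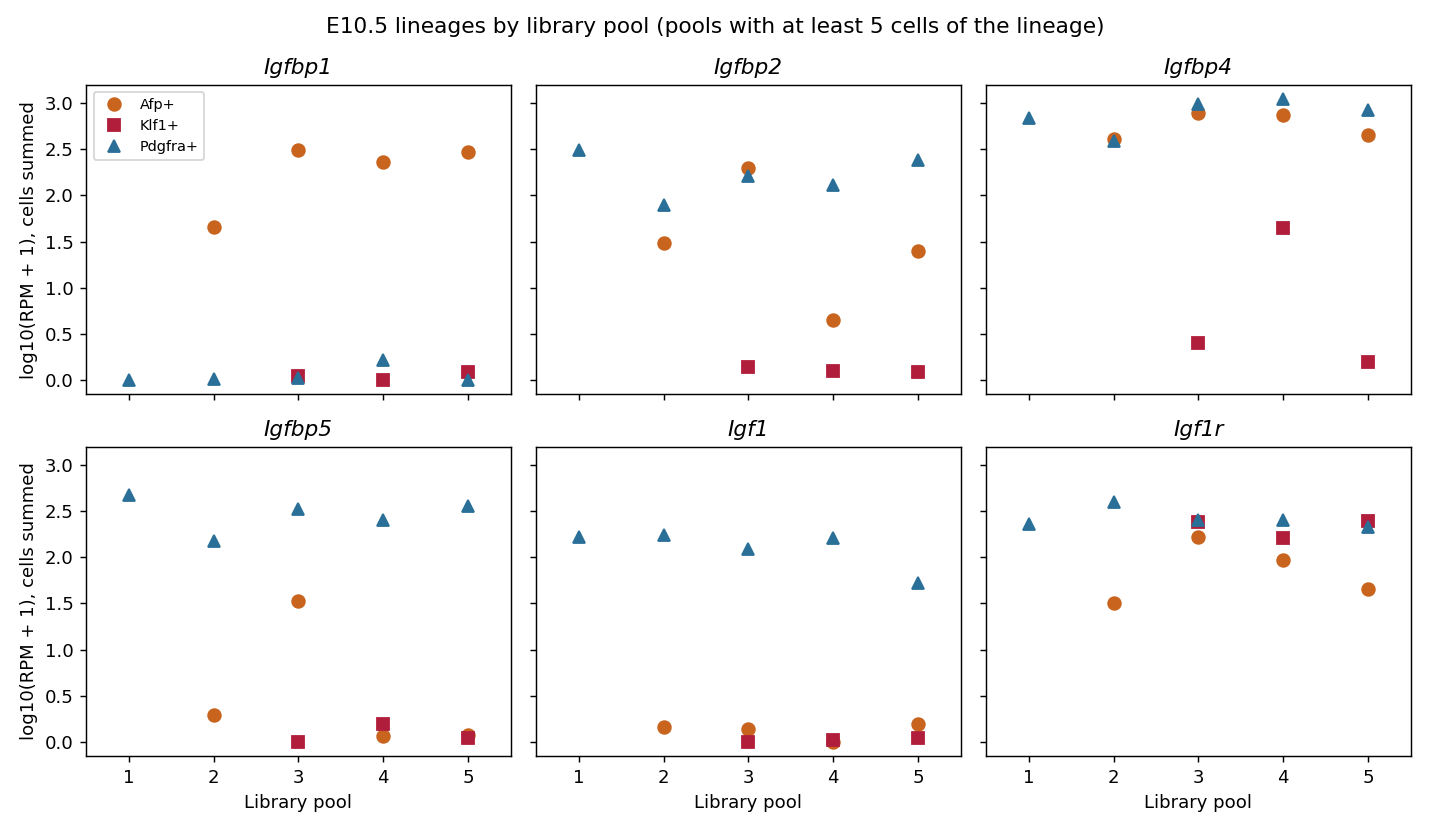
Level of 6 members by library pool at E10.5, as log10(RPM + 1) of the reads summed over the cells of a lineage, for pools with at least 5 cells of it. Igfbp1 was low in the Afp+ cells of pool 2 (44.7 RPM). Igfbp5 and Igf1 of the Pdgfra+ cells lay above each other lineage drawn in pools 2 to 5. Pool 1 had enough cells of the Pdgfra+ lineage only, and pool 2 too few Klf1+ cells. Igfbp2 and Igfbp4 each changed order between Afp+ and Pdgfra+ cells in 1 pool.

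Igfbp5, a binding protein that attaches to extracellular matrix, was also highest in the E10.5 Pdgfra+ cells. Its level was 316 RPM (313 to 318), over 10 reads in 83 cells (58.9%, 50.3 to 67.1%), with a median cell of 65.9 and a highest cell of 2549 RPM. The Afp+ cells had 6.17 RPM, with 63.1% of the reads in 1 of 59 cells, and the Klf1+ cells had 0.459 RPM. The ratio of Pdgfra+ to Afp+ cells was 51.2 (46.7 to 56.3), in the same direction in 4 of 4 pools. Pool values of the Pdgfra+ cells ran from 148.9 to 468 RPM.

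Igfbp2, a binding protein abundant in fetal tissues, was shared between the lineages. It came to 183.3 RPM in the Pdgfra+ cells (67 cells over 10 reads, 47.5%) and 78.4 RPM in the Afp+ cells (8 of 59), a ratio of 2.34 (2.27 to 2.40) in this direction in 3 of 4 pools, so it was not called. Pool 3 went the other way, with 197.9 RPM in 10 Afp+ and 159.6 RPM in 29 Pdgfra+ cells. The Afp+ value rested on few cells, since the 6 bulk cells had 448 RPM and the 53 Lgr5-GFP+ cells 31.8 RPM. Klf1+ cells had 0.357 RPM.

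Igfbp2 and Igfbp5, the chromosome 1 neighbours, overlapped in part in the E10.5 Pdgfra+ cells. There, 52 cells were over 10 reads for both, which is 77.6% of the 67 Igfbp2 cells and 62.7% of the 83 Igfbp5 cells, and 43 were over 10 reads for neither. Spearman's rho over these 66 Lgr5-GFP+ and 75 bulk cells was 0.28, as a description, since cells of 1 pool share depth and gene detection. In the Afp+ cells Igfbp2 passed 10 reads in 8 of 59 cells and Igfbp5 in 2, both of which were also Igfbp2 cells. The chromosome 11 neighbours stood higher in different lineages, Igfbp1 in the Afp+ cells and Igfbp3, at 16.5 RPM, in the Pdgfra+ cells. In the Afp+ cells Igfbp3 was at 1.09 RPM, and its 2 cells over 10 reads were both also Igfbp1 cells.

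Igfbp4 was the most widely found binding protein. At E10.5 it was over 10 reads in 86.5% of Pdgfra+ cells (848 RPM, 843 to 852) and in 48 of 59 Afp+ cells (496 RPM, 491 to 501). The ratio of 1.71 (1.69 to 1.73) held its direction in 3 of 4 pools. In the Klf1+ cells it was over 10 reads in 4 of 32 cells, 65.2% of the reads came from 1 cell, and the median cell had 1.07 RPM, about 1 read. Every Igfbp1 cell of the Afp+ class was also an Igfbp4 cell, 25 of 25, with 48 of 59 cells over 10 reads for Igfbp4 in all.

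Igfbp3, which carries most of the IGF in adult serum, was low at E10.5. It reached 16.5 RPM in the Pdgfra+ cells with 14 cells over 10 reads (9.93%), and 1.09 RPM in the Afp+ cells. No read was found in 32 Klf1+ cells (upper limit 0.094 RPM). With this empty group set to 3 counts, the ratio of Pdgfra+ to Klf1+ cells was 216, which is not a lower bound. Igfbp3 was at most 0.826 RPM in the Pdgfra+ cells of pools 1 and 2 and 18.04 to 31.4 RPM in pools 3 to 5. Igfbp7, known from blood vessels, had 10.2 RPM in the Pdgfra+ cells, of which 59.5% came from 1 cell, and under 1 RPM in the Afp+ and Klf1+ cells. The 5 Cdh5+ cells of this stage had 33.5 RPM, with 1 of 5 cells over 10 reads. Igfbp6 (chr15:102144362-102149511, +), which prefers IGF2, was found in 9 cells in all, and its 5 cells over 10 reads were all E10.5 cells. The highest of these, a Lgr5-GFP+ cell without a lineage marker, had 271 RPM.

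**Figure D3:**
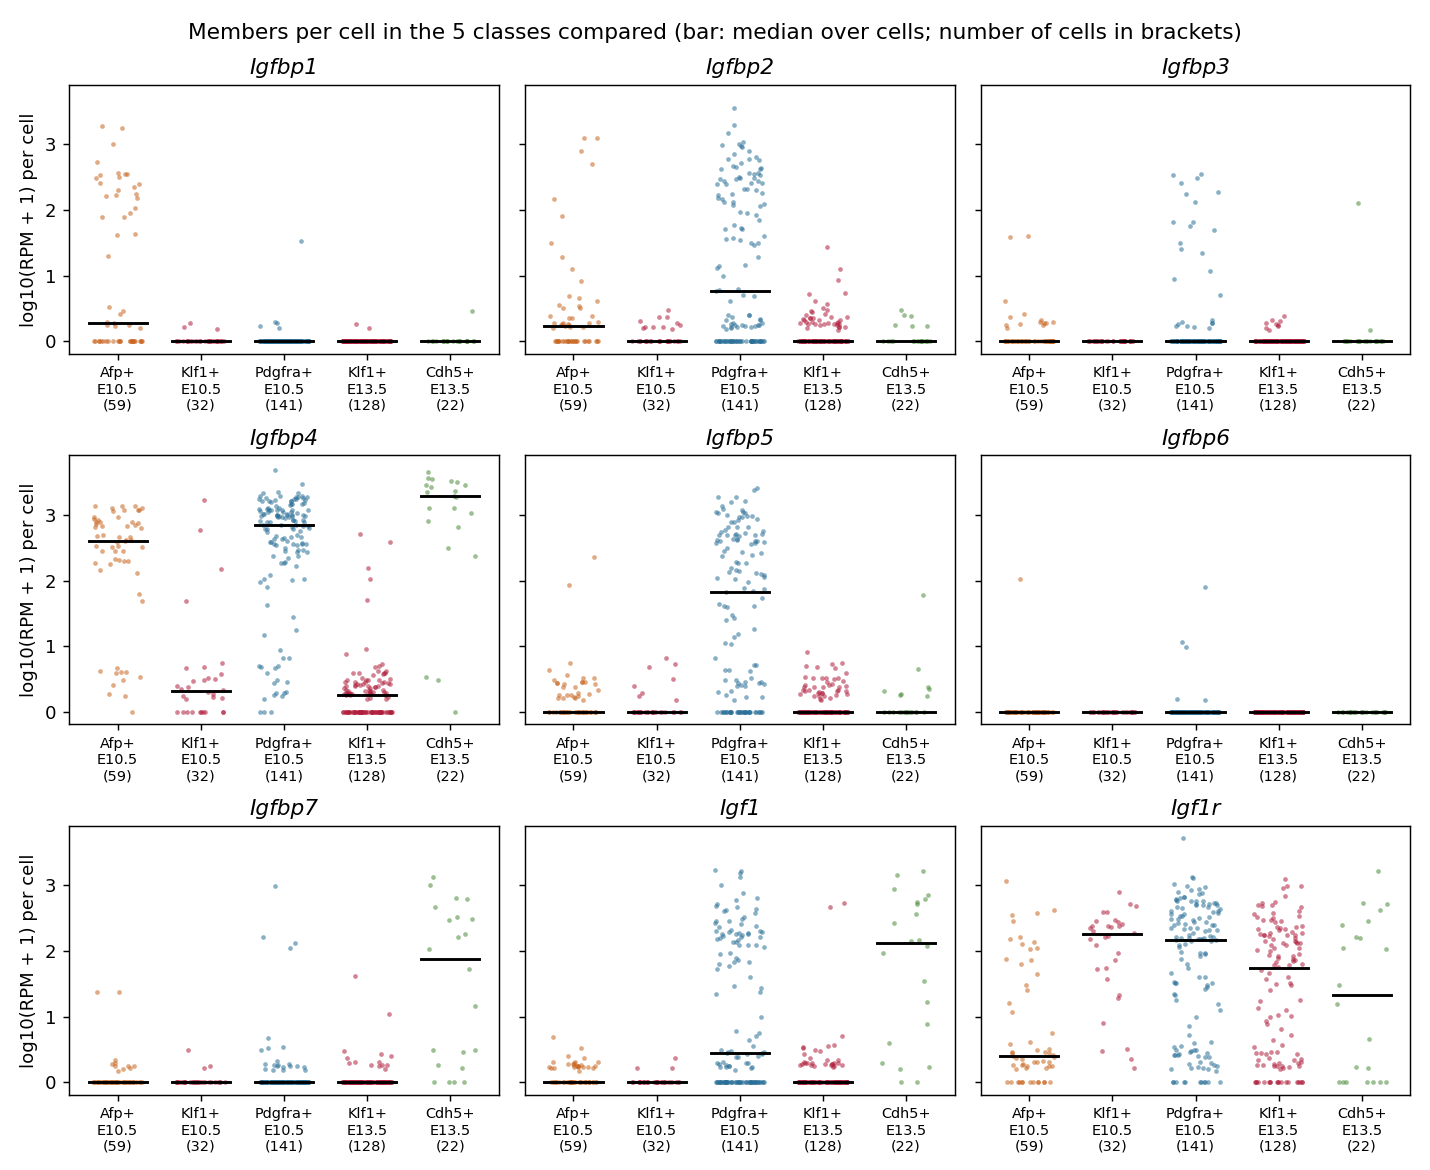
Each point is 1 cell, on a log10(RPM + 1) axis, for the 5 classes with at least 10 cells; bars are medians. Igfbp4 was on in most Afp+, Pdgfra+ and Cdh5+ cells, whereas Igfbp1, Igfbp2, Igfbp5 and Igf1 were each split between cells near 0 and cells far above it, with maxima of 1882, 3631, 2549 and 1699 RPM in their leading E10.5 class.

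Igf1r (chr7:67952827-68233668, +), the receptor, was measured in every class. At E10.5 it stood at 259 RPM in the Pdgfra+ cells (70.9% of cells over 10 reads), 192.9 RPM in the Klf1+ cells (27 of 32) and 65.7 RPM in the Afp+ cells (19 of 59). The Pdgfra+ and Klf1+ cells differed 1.34-fold (1.31 to 1.38), with the direction in 2 of 3 pools, and both were above the Afp+ cells in every pool compared, by 3.94-fold (4 of 4) and 2.93-fold (3 of 3). In the Klf1+ cells the median cell, at 178.1 RPM, lay close to the summed level. The share of cells over 10 reads moved with the pool, from 10 of 29 and 7 of 20 Pdgfra+ cells in pools 1 and 2 to 27 of 29, 34 of 37 and 22 of 26 in pools 3 to 5, while the summed level was 213 to 397 RPM throughout. The Afp+ share was likewise 3 of 33 cells in pool 2. Of the members, the receptor was thus the one that the E10.5 Klf1+ cells carried as the others did. The binding proteins and the ligand were at or near 0 there, apart from Igfbp4. This did not extend to erythroid-list cells without a lineage marker. At E10.5, the 25 such bulk cells had 384.3 RPM of Igfbp4, 280.4 RPM of Igfbp5 and 122.7 RPM of Igf1. In pool 1, 94% of all cells were positive for this list, and whether these 25 cells were erythroid was not tested.

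The number of binding protein genes over 10 reads set the lineages apart in the same way. At least 1 was found in 91.5% of the E10.5 Pdgfra+ cells and 83.1% of the Afp+ cells, against 12.5% of the E10.5 and 6.25% of the E13.5 Klf1+ cells. The Pdgfra+ cells most often held 3 such genes (49 cells), and the Afp+ cells 2 (21 of 59) or 1 (20 of 59). The E13.5 Cdh5+ cells stood at 86.4%. By group the share was 88.2% in the E10.5 Lgr5-GFP+ cells, 68% in the E10.5 bulk cells, 78.8% in the E13.5 Lgr5-GFP+ cells and 12.6% in the E13.5 bulk cells, of which 78.6% were Klf1+.

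**Figure D4:**
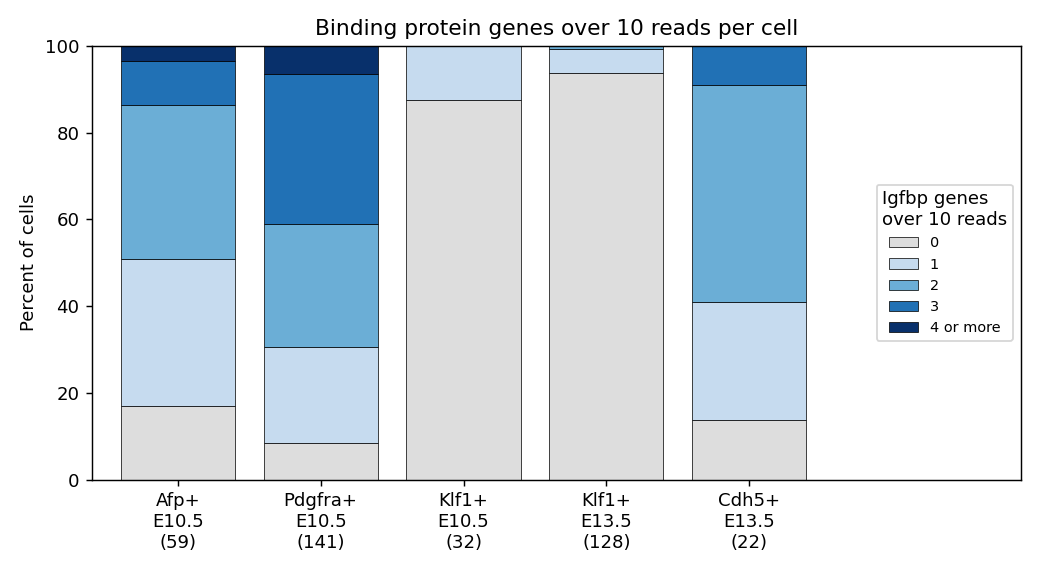
Percent of cells with 0, 1, 2, 3 or at least 4 of the 7 Igfbp genes over 10 reads, by class, with the number of cells in brackets. At least 1 gene was found in 91.5% of E10.5 Pdgfra+ and 83.1% of Afp+ cells, and in 12.5% and 6.25% of Klf1+ cells.

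At E13.5 only the Klf1+ (53.6% of cells) and Cdh5+ (22 cells) classes were large enough to compare, and 3 of the 4 members at 5 RPM or more were called highest in the Cdh5+ cells. Over 11014 genes, 25.4% were called highest in the Cdh5+ and 26.1% in the Klf1+ cells, so a large share of genes differed between these cells. Igfbp4 was 1833 RPM (1817 to 1848, 19 of 22 cells over 10 reads) against 12.9 RPM (5 cells, 3.91%), a ratio of 142.01 (135.5 to 148.9). Igfbp7 was 229 RPM (13 of 22 cells) against 0.485 RPM, a ratio of 472 (372 to 609). Igf1 was 352 RPM (15 of 22) against 8.22 RPM, a ratio of 42.8 (40.3 to 45.5). Each held in pools 3 and 4, which had enough cells of both classes. Igfbp7 moved with the pool, from 345.8 RPM (8 of 12 cells) in pool 3 to 101.3 RPM (4 of 7) in pool 4, and its Cdh5+ level was 101.2 RPM without pool 3. Igf1r was 181.4 RPM in the Cdh5+ and 143.6 RPM in the Klf1+ cells, a ratio of 1.26 (1.23 to 1.30), and was not called.

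The Cdh5+ class at E13.5 held more than endothelial cells. Of its 22 cells, 16 were positive for an endothelial list of 8 genes and the other 6 for a leukocyte list of 6 genes, and no cell was positive for both. In the 6 cells the myeloid genes Tyrobp, Csf1r and Fcgr3 reached 3364, 1032 and 850 RPM, Ptprc, which encodes CD45, reached 236 RPM, and the endothelial genes Tek and Emcn were at 0.474 and 0 RPM, although CD45+ cells had been gated out. In the 16 cells Lyve1, Kdr and Stab2 stood at 3184, 1042 and 812 RPM and Ptprc at 0, and Pecam1, which encodes CD31, was over 10 reads in all 16 (638 RPM), although the sort had excluded CD31+ cells. Cdh5 itself was 384 RPM in the 6 and 737 RPM in the 16 cells.

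The members were divided between these cells. Igfbp4 ranged from 807 to 4502 RPM over the 16 endothelial-list cells (median 2474) and from 0 to 643 RPM over the 6 leukocyte-list cells (median 120), without overlap. Such a gap, higher in the endothelial-list cells, was seen for 0.452% of 10404 genes, and 0.663% showed one in the other direction. Igfbp7 was over 10 reads in 13 of the 16 cells (321 RPM) and in none of the 6 (0.830 RPM, highest cell 2.15). Igf1 went the other way, from 371 to 1663 RPM over the 6 leukocyte-list cells, all over 10 reads, and from 0 to 621 RPM over the 16 cells, 9 of them over 10 reads, so the ranges overlapped. Igf1r came to 237 RPM in the 16 and 44.3 RPM in the 6 cells, with overlapping ranges. These cells were grouped after their values had been seen, and the gaps are descriptions.

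**Figure D5:**
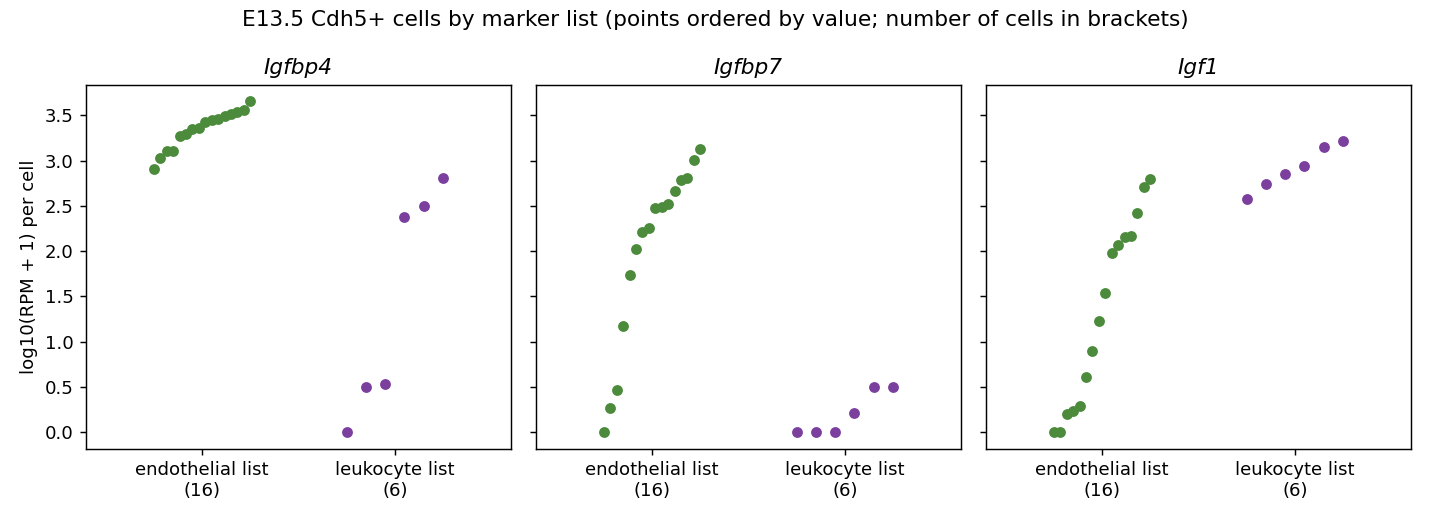
The 22 E13.5 Cdh5+ cells, 1 point each on a log10(RPM + 1) axis and in order of value, split into 16 cells positive for the endothelial list and 6 positive for the leukocyte list. All 16 endothelial-list cells lay above all 6 leukocyte-list cells for Igfbp4, and the 6 leukocyte-list cells lay between 371 and 1663 RPM for Igf1.

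Leukocyte-list cells also carried the Igf1 of the E13.5 Klf1+ class. Its bulk cells had 0.314 RPM, whereas 2 of its 3 Lgr5-GFP+ cells, both positive for the leukocyte list, had 511.01 RPM. Among all 13 leukocyte-list cells of the E13.5 Lgr5-GFP+ group, 10 were over 10 reads for Igf1 (591 RPM). The 9 leukocyte-list cells of the E13.5 bulk group had 0 reads of Igf1, and instead Igfbp4 in 7 of 9 cells (449 RPM) and Igf1r in 8 of 9 (370 RPM). No E10.5 cell was positive for this list. With all leukocyte-list cells left out, the E13.5 comparison called Igfbp4, Igfbp7 and Igf1 as before and added Igfbp3 at 5.51 RPM, while the Igf1 level of the Cdh5+ class went from 352 to 130 RPM. This setting was chosen after seeing the data, and the share of all genes called in it is not set beside the members. The only 2 Afp+ cells of E13.5 had 2589 and 500 RPM of Igf1, and of these 2 cells both were positive for the erythroid list, 1 for the hepatoblast, 1 for the mesenchymal and 1 for the leukocyte list.

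The remaining E13.5 Pdgfra+ cells, 7 of them Lgr5-GFP+ and 1 bulk, were too few to compare across stages, and their values are set beside the 66 E10.5 Pdgfra+ Lgr5-GFP+ cells. Igfbp3 stood at 777 RPM with 6 of 7 cells over 10 reads (3003, 1450, 681, 586, 226 and 97.4 RPM), beside 7.95 RPM with 4 of 66 cells at E10.5. Igf1 was 4.46 RPM with 1 of 7 cells, beside 152.97 RPM with 38 of 66. Igfbp2 was 1.15 RPM with 0 of 7 cells, beside 193.5 RPM with 33 of 66. Igfbp5 was 852 RPM from 2 of 7 cells, at 3198 and 2629 RPM, beside 349 RPM with 46 of 66 cells, a larger share of cells at E10.5. Igfbp4 was over 10 reads in all 7 cells (1375 RPM, beside 833 RPM with 60 of 66) and Igfbp7 in 4 of 7 (117.7 RPM, beside 5.84). Igf1r was 278.8 RPM with 4 of 7 cells, beside 238.7 RPM with 52 of 66. No comparison was made, since 7 cells are too few. The single bulk cell had 3090 RPM of Igf1 and 0 reads of Igfbp3 and Igfbp4. It came from pool 1 and was positive for the mesenchymal list and also for the erythroid list, whose genes summed to 6014 RPM. The 5 Cdh5+ cells of E10.5 all passed 10 reads of Igfbp4 (35.9 to 2761 RPM), 4 of 5 passed for Igf1 and 1 of 5 for Igfbp7.

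Stage could be compared in the Klf1+ bulk cells, 32 at E10.5 and 78.6% of the bulk cells at E13.5, and 0 of the 2 members at 5 RPM or more were called. Over 9348 genes, 7.95% were called higher at E13.5 and 5.55% higher at E10.5. Igf1r was 192.9 RPM at E10.5 and 147.01 RPM at E13.5, a ratio of 1.31 (1.28 to 1.35) with the same direction in 3 of 3 pools. Igfbp4 was 50.2 and 13.2 RPM, a ratio of 3.81 with this direction in 1 of 3 pools. Of its E10.5 reads 65.2% came from 1 cell of pool 1, which held 2 such cells and was not among these 3. Without pool 1 the log2 ratio was 0.085 in place of 1.93.

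The sorts could be compared in the E10.5 Pdgfra+ cells, 66 Lgr5-GFP+ and 75 bulk, and 0 of 7 members were called, beside 1.77% of 11426 genes higher in the Lgr5-GFP+ and 1.68% higher in the bulk cells. Igf1 was 152.97 RPM in the Lgr5-GFP+ and 116.3 RPM in the bulk cells (ratio 1.31, 1.28 to 1.35), and its cells over 10 reads were 38 of 66 and 23 of 75, but the direction held in only 3 of 5 pools. Igfbp3 was 24.7 RPM in the bulk and 7.95 RPM in the Lgr5-GFP+ cells, a ratio of 3.11 (2.85 to 3.39), again in 3 of 5 pools. Igfbp5 was higher in the bulk cells of pools 1 and 2 (600 against 312 and 230 against 4.67 RPM) and higher in the Lgr5-GFP+ cells of pools 3 to 5 (438 against 216, 357 against 111.6 and 453 against 271 RPM). Igfbp2, Igfbp4 and Igf1r differed by 1.11, 1.03 and 1.17-fold.

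The 245 cells without a lineage marker held much of the Igfbp2 and Igfbp5. In the 87 E10.5 Lgr5-GFP+ cells of this kind Igfbp2 reached 394 RPM (42 cells over 10 reads). Among them, 11 cells positive for a cholangiocyte list had 1475 RPM of Igfbp2 (10 of 11) and 303 RPM of Igfbp5 (10 of 11), and 17 cells positive for a muscle progenitor list had 604 RPM of Igfbp2 (16 of 17), 791 RPM of Igfbp4 (17 of 17) and 430 RPM of Igf1r (17 of 17). A cell can be positive for more than 1 list. Among the 81 E10.5 bulk cells, 7 mesothelial-list cells had 113.7 RPM of Igfbp3 (3 of 7) and 761 RPM of Igfbp4 (7 of 7), and 9 megakaryocyte-list cells had Igf1r (189.3 RPM, 8 of 9) with at most 7.10 RPM of any binding protein.

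At E13.5 the 45 unmarked Lgr5-GFP+ cells had 487 RPM of Igfbp2 (20 of 45), 453 RPM of Igfbp5 (21 of 45), 205.6 RPM of Igfbp3 (13 of 45) and 398 RPM of Igf1r (23 of 45). The 32 unmarked bulk cells had 0.529 RPM of both Igfbp2 and Igfbp5. They had 36.4 RPM of Igfbp3, over 10 reads in 2 of 32 cells, and 248.995 RPM of Igf1r (15 of 32). Igfbp4 was 133.4 RPM (10 of 32) in these bulk cells and 339.1 RPM (12 of 45) in the Lgr5-GFP+ cells. In the Lgr5-GFP+ cells 13 held both Igfbp2 and Igfbp5, which is 65% and 61.9% of the cells with each. Of the 45 cells, 24 came from pool 2 and 12 from pool 1, whose cells have fewer genes detected. Igf1 came to 250 RPM from 5 cells, 50.9% of it from 1.

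The other genes of the pathway were taken from a list of 43, of which 34 reached 5 RPM in an E10.5 lineage. Of these, 5 were called highest in the Afp+ cells, 1 in the Pdgfra+ and 0 in the Klf1+ cells, beside the 4.24%, 9.69% and 5.57% of all genes given above. Grb14, an adaptor that restrains insulin receptor signalling, was 31.5 RPM in the Afp+ cells and 0.682 and 0.0510 RPM in the Pdgfra+ and Klf1+ cells. Pik3r1, a regulatory subunit of PI3-kinase, was 83.2 RPM against 29.4 and 24.1 RPM, and Sos1, a Ras exchange factor, 51.1 against 21.1 and 9.14 RPM. Stc1, which encodes a stanniocalcin, an inhibitor of the binding protein protease PAPP-A, was 5.80 RPM in the Pdgfra+ cells and at most 0.0136 RPM in the others. The receptors Igf2r and Insr were highest in the Afp+ cells, at 190.7 and 78.5 RPM, but were not called.

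At E13.5, 30 of the 43 were at 5 RPM, and 11 were called highest in the Cdh5+ and 5 in the Klf1+ cells, beside the 25.4% and 26.1% of all genes. The imprinted noncoding RNA H19 was 607 against 7.62 RPM, the transcription factor Foxo1 270 against 12.6 RPM, Igf2r 159.2 against 26.6 RPM and Insr 52.5 against 15.6 RPM, all higher in the Cdh5+ cells. The PI3-kinase subunits Pik3r2 (18.97 against 0.0341 RPM) and Pik3cb (45.4 against 4.16 RPM) were higher in the Klf1+ cells. Between stages of the Klf1+ bulk cells 4 were called higher at E13.5 and 2 at E10.5, of 30. Tsc1 (28.3 to 86.9 RPM), Pik3r1 (24.1 to 74.5 RPM) and Sos1 (9.14 to 34.6 RPM) were among the former and Stc2 (75.96 to 16.02 RPM) among the latter. None of 32 was called between the sorts.

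Igf2, the main fetal ligand, was listed at 0 in every cell, although H19, its neighbour in the same imprinted region, held 679463 reads. The annotation places another gene model, Gm49394 (chr7:142650769-142669942, -), over Igf2 (chr7:142650766-142666816, -), and this was also at 0 in every cell. Whether the overlap removed the Igf2 reads when they were counted was not tested, and no statement on Igf2 is made. Igfals, which encodes the acid-labile subunit of the serum IGF complex, held 337 reads in all and did not pass 1.56 RPM in any E10.5 lineage.

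Genes that followed a member most closely were sought among 14489 genes by Spearman's rho of log2(RPM + 1) over all cells of both stages. Igfbp1 was most like Foxa2, a liver transcription factor (rho 0.58), Serpina1a, a liver secretory gene (0.53), and the ammonia transporter gene Rhbg (0.51). It had a read in only 55 cells, so most cells were tied at 0 and these values largely reflect which cells had any read. Igfbp4 was most like Fscn1 (0.59), Marcksl1 (0.57) and Serpinh1, a collagen chaperone (0.57). The other members had no gene at 0.5 or more, with 0.30 as the highest for Igf1r, and Igfbp6 had too few cells. The cells share pools and gene detection, and these values are descriptions.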

How the data were processed

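RNA of single cells was read by an adapted Smart-seq2 protocol as 50-base single-end reads. The authors aligned them to GRCm38 with STAR 2.6.0c and counted them with featureCounts of Subread 1.6.2, per the labels and the study's methods. The deposited raw count of each gene and cell (whole reads, no molecular identifiers, not normalised) was used. Per the study's methods the authors had removed cells by mitochondrial, spike-in and total reads and by the number of genes with a read, with a minimum that differed between sorting experiments. Scanpy 1.3.3 is also named in the labels, and its normalised table was not used.

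Reads were summed over the cells of a class and divided by the summed total, per 1e+06. RPKM further divides by exonic length in GENCODE M21, and Smart-seq2 reads need not cover a transcript evenly. A lineage needed more than 10 reads of exactly 1 of 4 markers, a comparison at least 10 cells a group, and a pool value at least 5 cells. A gene entered a comparison at 5 RPM in 1 group, and was called at a ratio of 2 over all cells with the same direction in every pool that had a value, with a sum of 0 set to 3 counts. Intervals are exact Poisson or Clopper-Pearson (95%), for counting error only. Alternatives covered marker thresholds, lineages that may overlap, scaling, filters, thinning to 400000 reads, single sorts and left-out pools.

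The members, the marker and pathway lists and the rules were chosen with earlier results of these data known. All members and markers were named, with Igf2, Igf2r, Insr and Igfals, up to 4 further pathway genes per comparison with the largest ratio among those called, and up to 3 similar genes per member at rho 0.5 or more. Gm49394, H19 beside Igf2, and the list genes of the Cdh5+ cells were named after their values were seen. The work used Python 3.11.15, numpy 2.4.6, pandas 2.3.3, scipy 1.17.1 and matplotlib 3.10.9.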

Additional observations from a re-analysis of the deposited data

How the results depend on the processing

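At E10.5, 3 members were called. With a marker threshold of more than 0 reads the number was 0, in pools 1 and 2 alone and in pools 3 to 5 alone it was 5, and in bulk cells alone, with no Afp+ class, it was 6. Bulk cells alone and pools 1 and 2 alone left 2 lineages, so a gene had fewer lineages to exceed. The share of all genes called is not set beside the numbers in this section, so they are not results about the members. Leaving out each pool in turn gave 3 to 5, with 5 without pool 2, where Igfbp3 and Igfbp7 were added. At E13.5, 3 were called, and the number was 5 with more than 0 marker reads, where Pdgfra+ replaced Cdh5+ cells, 6 with no filter on low values, and 3 to 4 without 1 pool, where Igfbp3 was added without pool 4. Of the Igfbp3 reads in the Cdh5+ cells, 99.1% came from 1 cell. Between stages 0 were called, but 3 with more than 0 marker reads (Igfbp2, Igfbp4 and Igfbp5) and 1 (Igf1) with lineages that may overlap, all higher at E10.5. Between sorts 0 were called, but 1 with more than 0 marker reads (Igfbp3), 1 in pools 1 and 2 (Igfbp5, higher in bulk) and 2 in pools 3 to 5 (Igfbp3, higher in bulk, and Igfbp5, higher in Lgr5-GFP+ cells). The cause of these changes was not tested.

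Of 345 log2 ratios of members under alternatives, 324 kept their direction and 21 did not, and none of the called values changed sign. These counts include the settings of the low-value filter, which leave every ratio as it was. Leaving out pool 1 or pool 2 at E13.5 took away Klf1+ cells only, since these pools held 0 Cdh5+ cells. The counts therefore say less about stability than their size. Median-of-ratios scaling moved the median log2 ratio of all genes by 0.24 between Afp+ and Pdgfra+ cells, 0.21 between Klf1+ and Pdgfra+ cells, 0.17 between the E13.5 lineages and 0.11 between stages. The E13.5 comparison in pools 1 and 2 or in single sorts, and the stage comparison in pools 1 and 2 or in Lgr5-GFP+ cells, had too few cells and were not run. No paired analysis was possible because the labels tie no cell to the study's replicate experiments or to an animal, so that each group is 1 sample. Small classes and low counts limit what could be seen.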
